A study of Mus musculus with 4 samples.

Results

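The genes described here are 10 members of the brain's proteoglycan matrix, out of 32285 genes in the count tables, followed through photothrombotic (PT) injury of the mouse cortex. They are Acan, Bcan, Ncan, Vcan, Cspg4, Cspg5, Ptprz1, Hapln1, Hapln4 and Tnr. They were chosen by name as a family, with earlier results of these data known. Each was found under a single identifier, and all 10 had enough counts to be tested in every comparison. Spatial transcriptomes had been measured on 4 Visium capture areas with 2 slices each, from 8 mice, 1 slice per mouse. Wild-type mice gave 1 slice at rest, 1 at 2 days post-injury (dpi), 2 at 7 dpi and 2 at 21 dpi. A further 2 slices at 21 dpi came from Cthrc1(creER); R26(DTA) mice, called deleter slices here. In these mice a creER recombinase driven from Cthrc1 is meant to switch on diphtheria toxin in Cthrc1-expressing cells, but the study set them aside because the deletion was undetectable, so they are a poor model of fibroblast loss. All injured mice had PT injury, in which a light-activated dye clots cortical vessels. Mice in the study were of both sexes, 7 to 21 weeks old unless stated otherwise and largely on a C57BL/6 background, and the age of each of these mice is not given in the sources used here.

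Chondroitin sulfate proteoglycans are core proteins that carry long sulfated sugar chains. The lecticans (aggrecan from Acan, brevican from Bcan, neurocan from Ncan and versican from Vcan) bind hyaluronan at one end and tenascin-R at the other, and link proteins of the Hapln family lock them onto hyaluronan. Together they build the loose matrix between brain cells and the dense perineuronal nets that wrap fast-spiking, parvalbumin-positive neurons. After injury these molecules are known as components of the glial scar that restrain axon growth, while membrane-bound members act as receptors on glia.

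Several of these genes lie beside each other in the genome (build GRCm38, also called mm10). Vcan, at chromosome 13 from 89655312 to 89742509, lies 43659 bases from Hapln1, at 89539796 to 89611652. Ncan, at chromosome 8 from 70093085 to 70120873, lies 2222 bases from Hapln4, at 70083457 to 70090862. Bcan lies on chromosome 3 from 87987531 to 88000230. Acan lies on chromosome 7 from 79053483 to 79115099, and only 2 bases separate its annotated end from the end of Hapln3 on the opposite strand. Outside these pairs, Cspg4 lies on chromosome 9 from 56865033 to 56899870 and Cspg5 on the same chromosome from 110243783 to 110262576. Ptprz1 lies on chromosome 6 from 22875502 to 23052916, and Tnr on chromosome 1 from 159523769 to 159931729.

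The promoters of 5 members are shown because these genes differed in Col1a1-rich tissue, defined below, in the results that follow. Vcan, Cspg4 and Acan were higher in it, Ncan and Bcan lower. Each sequence holds 250 bases before and 50 bases after the start site that RefSeq gives (GRCm38.p6), written 5′ to 3′ on the gene's own strand. The RefSeq table used here had an entry for 8 of the 10 members, all but Cspg5 and Hapln4. Capitals mark matches, on either strand, to 5 short motifs. The TATA box was searched as TATAAA and the GC box, which Sp1 binds, as GGGCGG. The CCAAT box was searched by its own letters, the motif of AP-1 factors as TGANTCA and the motif of TEAD factors as GGAATG.
Vcan, chr13:89742463-89742762, minus strand: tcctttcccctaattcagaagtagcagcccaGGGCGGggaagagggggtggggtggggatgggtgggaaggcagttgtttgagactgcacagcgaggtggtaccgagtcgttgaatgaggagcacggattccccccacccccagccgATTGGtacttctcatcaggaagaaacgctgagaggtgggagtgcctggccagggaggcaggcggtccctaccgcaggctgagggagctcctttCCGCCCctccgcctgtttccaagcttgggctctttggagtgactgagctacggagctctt
Cspg4, chr9:56864854-56865153, plus strand: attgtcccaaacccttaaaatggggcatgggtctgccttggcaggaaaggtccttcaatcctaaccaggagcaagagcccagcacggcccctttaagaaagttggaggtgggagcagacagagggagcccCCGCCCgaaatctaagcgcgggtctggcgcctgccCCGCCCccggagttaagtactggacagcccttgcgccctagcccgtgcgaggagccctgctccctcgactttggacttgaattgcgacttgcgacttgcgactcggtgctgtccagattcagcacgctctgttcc
Acan, chr7:79052976-79053275, plus strand: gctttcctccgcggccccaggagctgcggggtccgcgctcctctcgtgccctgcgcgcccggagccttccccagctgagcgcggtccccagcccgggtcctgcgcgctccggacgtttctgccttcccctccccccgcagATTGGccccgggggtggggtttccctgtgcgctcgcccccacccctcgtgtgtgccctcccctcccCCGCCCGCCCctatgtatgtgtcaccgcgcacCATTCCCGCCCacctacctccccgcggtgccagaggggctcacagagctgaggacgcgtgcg
Ncan, chr8:70120795-70121094, minus strand: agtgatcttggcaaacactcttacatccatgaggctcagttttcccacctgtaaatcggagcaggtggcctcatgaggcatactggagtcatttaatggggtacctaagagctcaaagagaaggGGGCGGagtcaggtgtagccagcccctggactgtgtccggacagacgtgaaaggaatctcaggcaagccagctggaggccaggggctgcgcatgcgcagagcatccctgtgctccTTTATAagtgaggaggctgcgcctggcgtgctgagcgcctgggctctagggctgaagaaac
Bcan, chr3:88000307-88000606, minus strand: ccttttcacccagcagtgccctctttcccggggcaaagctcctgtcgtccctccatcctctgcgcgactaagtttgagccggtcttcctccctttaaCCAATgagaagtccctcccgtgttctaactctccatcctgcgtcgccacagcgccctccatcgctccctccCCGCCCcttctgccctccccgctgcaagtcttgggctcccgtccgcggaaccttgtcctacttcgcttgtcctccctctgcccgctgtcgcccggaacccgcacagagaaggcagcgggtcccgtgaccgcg

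The GC box was the motif these windows shared. It was present 2 times for Vcan, 2 times for Cspg4, 3 times for Acan (2 of these matches overlap) and 1 time each for Ncan and Bcan, and 35.7% of all 32851 promoters in the table held it. All 5 printed windows held it, as did the window of Ptprz1 (2 times), and the windows of Hapln1 and Tnr did not. CCAAT, held by 37.4% of all promoters, was found in the windows of Vcan, Acan and Bcan. A TATA box (13.6% of promoters) was found in that of Ncan, with its first base at position -11 from the start site, and GGAATG (14.7%) in that of Acan. The AP-1 motif (7.81% of promoters) was in none of the 8 windows. These are matches of letters and not measured binding sites.

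Depth allowed the low genes of this family to be read only as sums over many spots. The slices held 827 to 1726 tissue spots and 11332780 to 23677298 unique molecular identifiers (UMIs, counts of captured messenger RNA molecules), and levels are given as UMIs per 10000 UMIs. The median was 12447 to 16158 UMIs per spot except at 2 dpi, where it was 2634 and 21.7% of spots held fewer than 1000. A spot covers a small patch of tissue that can hold several cells of different types. Fewer cells of a type and less RNA per cell therefore cannot be told apart in any result that follows. All 6 neuron, 7 astrocyte and 5 oligodendrocyte markers looked up had UMIs in every slice. Spots with at least 5 Col1a1 UMIs per 10000 are called Col1a1-rich (Col1a1 encodes a chain of type I collagen, made by fibroblasts). Distances from them were counted in spots across the hexagonal array, with near spots at distance 1 or 2 and far spots at 6 or more. The injured slices from 7 dpi on held 112, 392, 170, 203, 193 and 274 Col1a1-rich spots (7 dpi slices 1 and 2, wild type at 21 dpi slices 1 and 2, deleter slices 1 and 2). There were 3 at rest and 26 at 2 dpi, 17 of these resting on a single Col1a1 UMI, so these slices enter no comparison by distance. Slice 1 at 7 dpi was unusual in that 105 of its 112 Col1a1-rich spots lay in the 2 outer rings of the tissue.

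Across whole slices, the levels moved in different ways over time. Vcan, the lectican of loose and developing matrix, was at 0.0899 UMIs per 10000 at rest, 0.166 at 2 dpi, 0.297 and 0.448 at 7 dpi, 0.159 and 0.164 in wild type at 21 dpi and 0.192 and 0.139 in deleter slices. Cspg4, the membrane proteoglycan NG2 of oligodendrocyte precursors and pericytes, was at 0.0948 at rest, 0.134 at 2 dpi, 0.419 and 0.588 at 7 dpi, 0.194 and 0.168 in wild type at 21 dpi and 0.189 and 0.159 in deleter slices. Both were highest in the 7 dpi slices and lowest at rest, and in neither did the 7 dpi slices overlap with any other. Ncan, a secreted lectican of neurons and astrocytes, was at 0.913 at rest, 0.694 at 2 dpi, 1.60 and 1.44 at 7 dpi, 0.938 and 0.976 in wild type at 21 dpi and 0.963 and 1.05 in deleter slices. Tnr, the oligodendrocyte and interneuron glycoprotein that crosslinks lecticans, was at 0.517 at rest, 0.362 at 2 dpi, 0.884 and 0.833 at 7 dpi, 0.635 and 0.714 in wild type at 21 dpi and 0.680 and 0.581 in deleter slices. For these as well the 7 dpi slices stood above all others, and the slice at 2 dpi stood lowest.

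**Figure D1:**
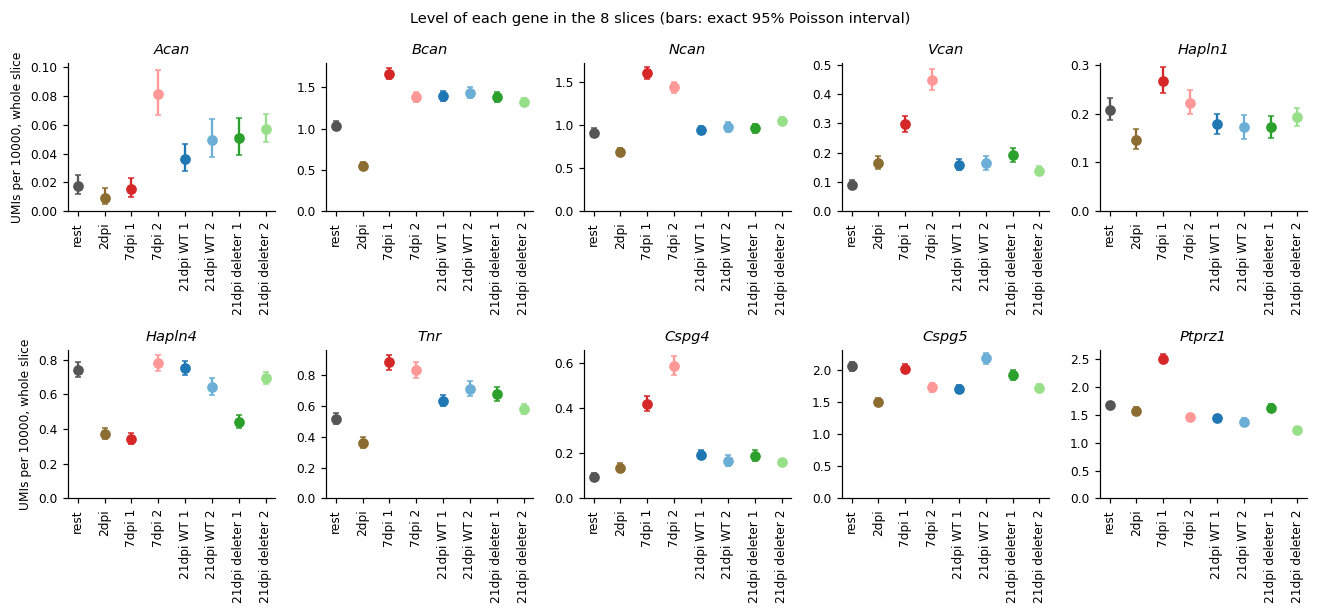
Level of each of the 10 genes in UMIs per 10000 over all tissue spots of a slice (y axes from 0), 1 point per slice, with exact 95% Poisson intervals that cover counting error only. Vcan, Cspg4, Ncan and Tnr are highest in the 2 slices at 7 dpi, while the 2 slices at 7 dpi lie far apart for Acan, Hapln4 and Ptprz1.

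Hapln4, Acan and Ptprz1 differed widely between the 2 mice at 7 dpi, while Bcan, Hapln1 and Cspg5 were lowest at 2 dpi. Bcan, the lectican of adult astrocytes and oligodendrocyte-lineage cells, was at 1.04 at rest, 0.553 at 2 dpi, 1.66 and 1.38 at 7 dpi, 1.39 and 1.43 in wild type at 21 dpi and 1.38 and 1.32 in deleter slices. Hapln4, the link protein of perineuronal nets and inhibitory synapses, was at 0.742 at rest, 0.372 at 2 dpi, 0.345 and 0.781 at 7 dpi, 0.750 and 0.644 in wild type at 21 dpi and 0.442 and 0.693 in deleter slices. Its slices at 7 dpi were the lowest and the highest of the series. Ptprz1, a receptor phosphatase of radial glia and astrocytes whose outer part carries chondroitin sulfate, was at 2.51 in slice 1 at 7 dpi and between 1.23 and 1.67 in the other 7 slices. Cspg5 (neuroglycan C, a membrane proteoglycan of neurons and glia) was lowest at 2 dpi and highest, at 2.18, in wild-type slice 2 at 21 dpi. Hapln1, a link protein of cartilage and brain matrix, ranged from 0.147 at 2 dpi to 0.268 in slice 1 at 7 dpi. Acan, the classical marker of perineuronal nets, was scarce, with 29 UMIs at rest, 12 at 2 dpi, 23 and 110 at 7 dpi, 64 and 56 in wild type at 21 dpi and 65 and 135 in deleter slices. Its level was highest in slice 2 at 7 dpi, at 0.0814 UMIs per 10000 (exact 95% Poisson interval 0.0669 to 0.0981, which like all intervals here covers counting error only), against 0.0153 (0.00971 to 0.0230) in the other slice of that time.

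At 2 dpi the levels of 8 members were below those at rest, and those of Vcan and Cspg4 were above. With 1 slice at each time no test was possible, and genes were counted by a ratio of at least 1.5 in either direction. Hapln4 was at 0.501 of its level at rest (exact 95% interval 0.450 to 0.557), Bcan at 0.534 (0.488 to 0.583) and Acan at 0.517 (0.240 to 1.04), the last resting on 12 UMIs against 29. Vcan was 1.84 times its level at rest (1.49 to 2.29). Thus 1 of 10 members was at least 1.5-fold higher, where 18.6% of 12423 genes with at least 100 UMIs over both slices were, and 3 of 10 at least 1.5-fold lower, where 10.8% were (Acan itself had fewer UMIs than that minimum). Cspg4 (1.42, interval 1.14 to 1.77), Ptprz1 (0.938), Ncan (0.759), Cspg5 (0.727), Hapln1 (0.705) and Tnr (0.700) were within 1.5-fold. The summed neuron markers were at 51.6 UMIs per 10000 at rest and 27.7 at 2 dpi, and their part in the lower levels was not tested. The 2 slices shared a capture area, but the slice at 2 dpi was the shallow one.

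**Figure D2:**
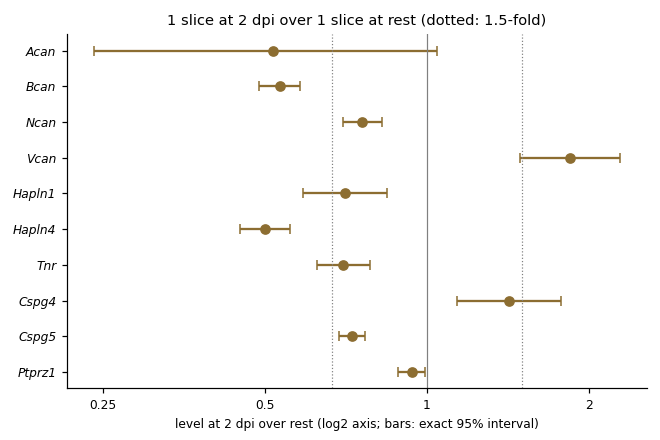
Ratio of the level at 2 dpi to the level at rest for each gene, on a log2 axis, with exact 95% intervals of the counts; dotted lines mark 1.5-fold. Vcan lies at 1.84, and Hapln4, Bcan and Acan lie at 0.501, 0.534 and 0.517.

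The RNA-poor spots at 2 dpi were not empty of these transcripts. The 375 spots with fewer than 1000 UMIs held 237110 UMIs in all, of which 48 were Cspg5, 23 Ptprz1, 17 Hapln4, 17 Bcan and 16 Ncan. Hapln4 was at 0.717 UMIs per 10000 there and at 0.366 in the other 1351 spots, a ratio of 1.96 (exact 95% interval 1.13 to 3.17). Ptprz1 was at 0.970 against 1.58, a ratio of 0.616 (0.389 to 0.927). For the other 8 members the interval of the ratio included 1, and at this depth no difference was detectable. These results moved with the minimum. Below 500 UMIs the 107 spots held 2 UMIs of Hapln4 and 4 of Ptprz1, and both intervals included 1 (0.158 to 4.75 and 0.169 to 1.59), while Bcan, with 7 UMIs, had a ratio of 3.09 (1.24 to 6.41) and Cspg5, with 12, of 1.95 (1.00 to 3.41). Below 2000 UMIs the intervals of Hapln4 (1.04 to 2.01) and Ptprz1 (0.636 to 0.959) again excluded 1.

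In the Col1a1-rich spots members were called in both directions, at shares close to those of all genes. Vcan, Acan and Cspg4 were higher than in far spots, Hapln4, Cspg5, Ncan and Bcan were lower, and Ptprz1, Hapln1 and Tnr did not pass the test. Counts summed per slice and zone in the 4 wild-type slices at 7 and 21 dpi were compared with edgeR's quasi-likelihood test, with slice as a block and Benjamini-Hochberg adjustment over 13481 genes. Of the 10 members 3 were called higher, where 32.4% of all genes were, and 4 lower, where 30.6% were. The median log2 fold change of the members was -0.32, against 0.01 over all genes tested. The zones differ by construction in fibroblast content, and their cells differ widely, so these calls are read gene by gene. With a minimum of 10 Col1a1 UMIs per 10000, or with the deleter slices added, 7 members were called lower.

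Vcan and Acan were the lecticans that rose. The level of Vcan in Col1a1-rich spots was 1.16 and 0.792 in the slices at 7 dpi and 0.206 and 0.256 in wild type at 21 dpi, against 0.198, 0.154, 0.133 and 0.0594 in the far spots of the same slices. Every slice was higher in its Col1a1-rich zone, and no Col1a1-rich level fell below any far level. The log2 fold change was 2.03 (SE 0.31, adjusted p = 0.000164), and the deleter slices, which were not in the test, gave 0.292 and 0.149 against 0.0771 and 0.114. Acan was higher as well, at 0.0709, 0.175, 0.0581 and 0.140 against 0.00994, 0.0637, 0.0380 and 0.0149 (log2 fold change 1.97, SE 0.44, adjusted p = 0.00237). These levels rest on 6, 77, 13 and 40 UMIs in the Col1a1-rich spots, spread over 6, 63, 10 and 33 spots, and the groups overlapped across slices though not within one. In the Col1a1-rich spots of the 2 outer tissue rings Acan was at 0.0802, 0.240, 0.0219 and 0.219, against 0, 0.142, 0.0832 and 0.113 further inside. In the deleter slices Acan was at 0.183 and 0.127 against 0.0114 and 0.0538, so it was higher in 6 of 6 slices. Hapln3, whose annotated end nearly meets that of Acan, had 2, 6, 3 and 5 UMIs in the same Col1a1-rich spots. Whether counting used the strand is not given in the sources used here, so reads of these ends could be shared between the genes.

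The other lecticans were lower in the Col1a1-rich zone. Ncan was at 1.19, 0.901, 0.519 and 0.522 in Col1a1-rich spots and at 1.46, 1.48, 1.02 and 1.18 in far spots, lower in 6 of 6 slices with the deleter slices counted (log2 fold change -0.70, SE 0.13, adjusted p = 0.000704). Without slice as a block this call was lost (adjusted p = 0.0593). Bcan was at 0.803, 0.883, 1.03 and 1.30 against 1.88, 1.90, 1.45 and 1.27. It was well below the far level at 7 dpi, but in slice 2 at 21 dpi it was 1.02 times the far level. Its log2 fold change of -0.63 (SE 0.21, adjusted p = 0.0247) was the call lost most often among those for Col1a1-rich spots, standing under 11 of 15 alternative settings. It was lost without slice 1 at 7 dpi (adjusted p = 0.113), without slice 2 at 7 dpi (0.105), without the 2 outer rings of each slice (0.103) and with a minimum of 2 Col1a1 UMIs per 10000 (0.0800).

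Of the link proteins, Hapln4 had the largest change of the family. Its level was 0.118, 0.221, 0.143 and 0.0806 in Col1a1-rich spots, 0.163, 0.545, 0.541 and 0.416 in near spots and 0.382, 1.65, 0.941 and 1.13 in far spots. Each slice rose stepwise outward, and Col1a1-rich and far levels did not overlap. The log2 fold change was -2.83 (SE 0.24, adjusted p = 3.62e-06) in Col1a1-rich and -1.23 (SE 0.21, adjusted p = 0.00151) in near spots. Summed inhibitory neuron markers fell the same way, from 7.40 to 11.4 UMIs per 10000 in far spots to 1.69 to 3.24 in Col1a1-rich spots, and all 6 of them were called lower (Pvalb, log2 fold change -2.16; Syt2, -2.93). All 6 general neuron markers were called lower as well (median log2 fold change -1.93, against -2.19 for the inhibitory neuron markers). The part of these neurons in the fall of Hapln4 was not tested. Hapln1 lay between 0.0984 and 0.189 in Col1a1-rich spots and between 0.151 and 0.274 in far spots, a log2 fold change of -0.36 (SE 0.19, adjusted p = 0.130) that was lower in all 6 slices but did not pass the test. Vcan and Hapln1 thus differed in call although they are neighbours on chromosome 13, and Ncan and Hapln4, neighbours on chromosome 8, were both called lower.

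**Figure D3:**
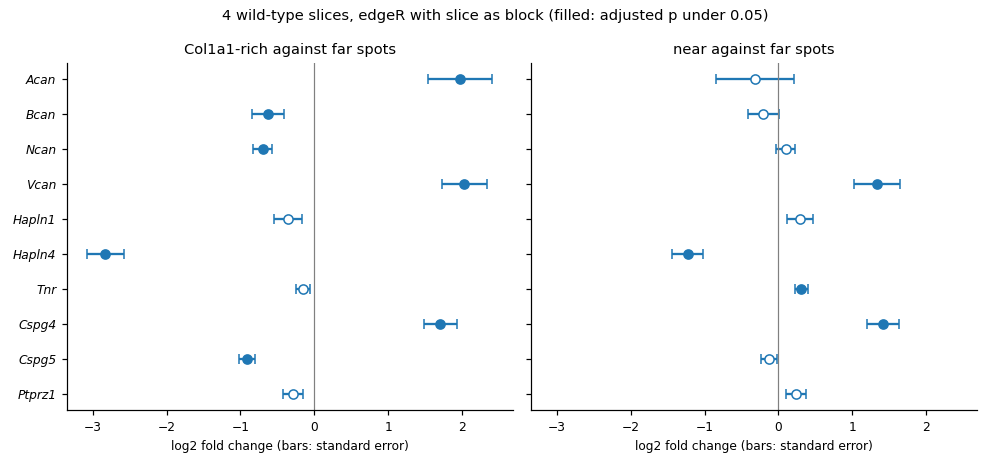
Log2 fold change of each gene in Col1a1-rich against far spots (left) and near against far spots (right) over the 4 wild-type slices, with standard errors; filled points had an adjusted p under 0.05. Vcan and Cspg4 lie to the right and Hapln4 to the left in both panels, while Acan lies at 1.97 on the left and at -0.32 on the right.

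Among the membrane proteoglycans, Cspg4 was higher in the fibrotic zone and Cspg5 lower. Cspg4 was at 0.886, 0.833, 0.291 and 0.273 in Col1a1-rich spots, at 0.911, 0.679, 0.293 and 0.156 in near spots and at 0.251, 0.181, 0.148 and 0.111 in far spots. It was raised about as far in the near zone as in the Col1a1-rich zone, with log2 fold changes of 1.42 (SE 0.22, adjusted p = 0.000908) and 1.70 (SE 0.22, adjusted p = 5.51e-05). All 6 pericyte and smooth muscle markers were called higher in Col1a1-rich spots and 4 of 6 in near spots. Among them Pdgfrb is also counted with the fibroblast markers. The study names Acta2, another of them, as a marker of myofibroblasts, the matrix-depositing fibroblasts. All 6 microglia and macrophage markers were called higher in both zones (median log2 fold changes 2.78 and 2.31). Of 6 oligodendrocyte precursor markers only Pdgfra, made by fibroblasts too, and C1ql1 were called higher in Col1a1-rich spots (median 0.07), where their sum was below that of far spots in 3 of the 4 wild-type slices, and 3 of 6 were in near spots. The part of these cells in the rise of Cspg4 was not tested. Cspg5 was at 0.850, 1.13, 0.894 and 1.34 in Col1a1-rich spots against 2.01, 2.19, 1.80 and 2.42 in far spots, with no overlap (log2 fold change -0.91, SE 0.11, adjusted p = 2.94e-05). Ptprz1 had a log2 fold change of -0.29 (SE 0.14, adjusted p = 0.0836) and Tnr of -0.16 (SE 0.10, adjusted p = 0.178). Both had lower levels in Col1a1-rich than in far spots in 6 of 6 slices, at ratios from 0.595 to 0.924 in wild type, without passing the test.

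In near spots, 3 of the 10 members were called higher than in far spots, where 18.1% of all genes were, and 1 lower, where 12.5% were. Besides Cspg4 and Hapln4 these were Vcan and Tnr. Vcan was at 0.483, 0.357, 0.212 and 0.299 in near spots (log2 fold change 1.34, SE 0.31, adjusted p = 0.00826), above every far level. Tnr was at 0.960, 0.930, 0.766 and 0.903 in near spots against 0.881, 0.781, 0.593 and 0.698 in far spots. This rise was small but went one way in all 6 slices (log2 fold change 0.31, SE 0.09, adjusted p = 0.0286), and its call was lost under 9 of 15 alternative settings, among them leaving out slice 2 at 7 dpi (adjusted p = 0.112) or either wild-type slice at 21 dpi (0.111 and 0.118). Bringing the minimum down to 2 Col1a1 UMIs per 10000 ended the calls of Vcan (log2 fold change 0.47, adjusted p = 0.330), Hapln4 (-0.57, adjusted p = 0.157) and Tnr (0.02, adjusted p = 0.974) but not that of Cspg4. Without slice as a block none of these 4 calls stood, with adjusted p from 0.0528 for Cspg4 to 0.205 for Tnr. Acan, raised in the Col1a1-rich spots, was not called beside them (log2 fold change -0.32, SE 0.53, adjusted p = 0.688). Its near levels rest on 3, 5, 11 and 5 UMIs in the wild-type slices.

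The profiles by distance showed where each gene peaked. Acan was highest within the Col1a1-rich spots in 6 of 6 slices, but its interval cleared that of the second-highest bin in only 1 of 2 slices at 7 dpi and 2 of 4 at 21 dpi. Between distances 0 and 1 the level fell from 0.175 to 0.0118 UMIs per 10000 in slice 2 at 7 dpi. In wild-type slice 2 at 21 dpi it fell from 0.140 to 0.00738. Few counts lie behind these low levels. Near spots, distances 1 and 2 together, held 5 Acan UMIs in each of these slices. In wild-type slice 1 at 21 dpi the level was 0.0581 at distance 0 and 0.0501 at 10 or more. Vcan fell outward from 1.16 to 0.580 at distance 1 and 0.383 at distance 2 in slice 1 at 7 dpi. In slice 2 at 7 dpi Vcan was highest at distance 0 (0.792) and next highest at distance 3 to 5 (0.392). At 21 dpi it was highest at distance 1 in 3 of 4 slices, but its interval never cleared that of the second-highest bin. Hapln4 was lowest in the Col1a1-rich spots and highest at distance 6 or more in all 6 slices. Its level in wild-type slice 2 at 21 dpi, for example, went from 0.0806 through 0.243, 0.680, 0.723 and 1.03 to 1.25.

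**Figure D4:**
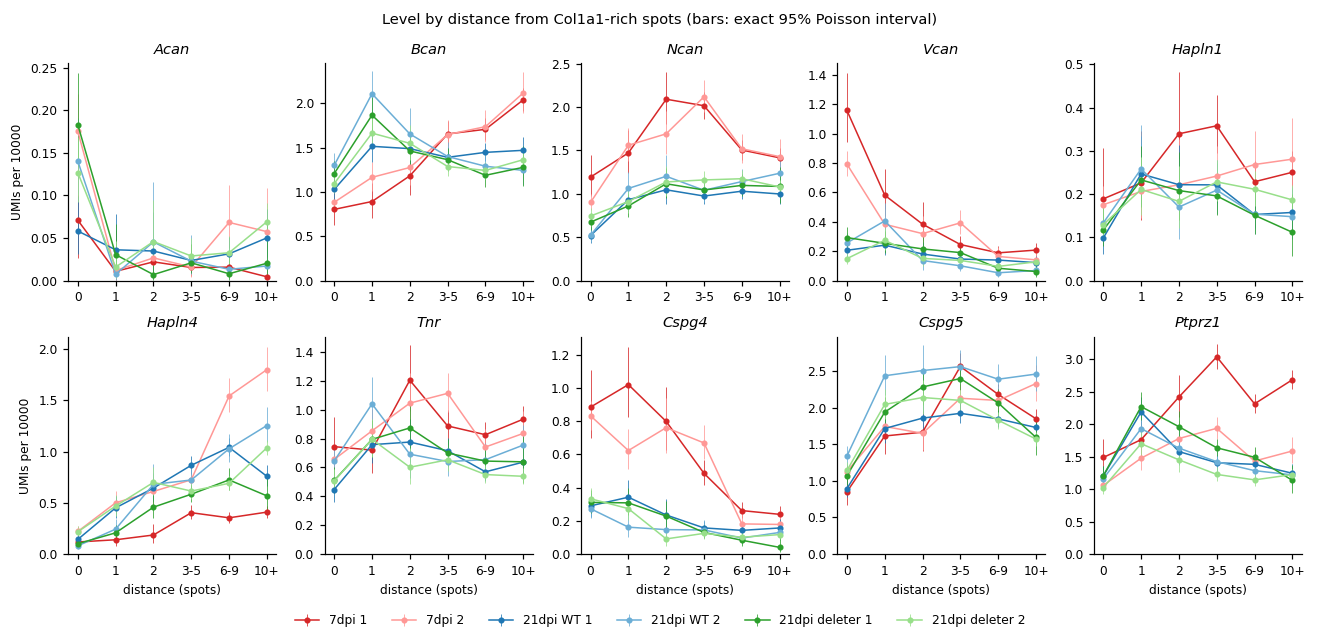
Level of each gene in UMIs per 10000 (y axes from 0) by distance in spots from the nearest Col1a1-rich spot, distance 0 being the Col1a1-rich spots themselves, 1 line per injured slice, with exact 95% Poisson intervals. Acan is highest at 0, Vcan and Cspg4 are highest at 0 or 1, Hapln4 is lowest at 0, and Bcan and Ptprz1 peak at distance 1 in the 4 slices at 21 dpi but not in the 2 at 7 dpi.

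Bcan and Ptprz1 were highest right beside the Col1a1-rich spots in each slice at 21 dpi and further out in both slices at 7 dpi, a difference that did not pass the test for either gene. Bcan at distance 1 was at 1.52 and 2.11 in wild type and 1.87 and 1.66 in deleter slices, the highest bin of each of the 4 slices, against 1.03, 1.30, 1.21 and 1.09 in the Col1a1-rich spots. At 7 dpi it climbed outward instead, from 0.803 and 0.883 at distance 0 through 0.892 and 1.17 at distance 1 to 2.04 and 2.12 at distance 10 or more. Ptprz1 at distance 1 was at 2.19, 1.93, 2.27 and 1.70 in the 4 slices at 21 dpi, again the highest bin in each, and at 7 dpi it was highest at distance 3 to 5 (3.04 and 1.94). The interval of this bin cleared that of the second-highest bin in 1 of the 4 slices for each gene. Over near spots as a whole, Bcan was at 0.552 and 0.638 of its far level in the slices at 7 dpi, at 1.03 and 1.52 in wild type at 21 dpi and at 1.40 and 1.23 in deleter slices. The difference of the near against far contrast between 21 and 7 dpi, tested after these ratios had been seen, was 1.08 on the log2 scale (SE 0.22) with an unadjusted p = 0.000674 and an adjusted p = 0.151 (edgeR). It was called without wild-type slice 1 at 21 dpi (1.24, adjusted p = 0.0220) and without a filter on low counts (1.00, adjusted p = 0.0167). For Ptprz1 the same difference was 0.62 (SE 0.18, adjusted p = 0.325) and was called under 0 of 13 alternatives. In wild-type slice 1 at 21 dpi the profile of Bcan was nearly flat outside the Col1a1-rich spots, at 1.52, 1.49 and 1.47 at distances 1, 2 and 10 or more. Markers of astrocytes and of the oligodendrocyte lineage moved the same way, with values above 0 for all 7 astrocyte markers (median 1.25), all 5 oligodendrocyte markers (1.73) and all 6 precursor markers (0.64), none of them called. The summed astrocyte markers were at 26.7 and 24.96 UMIs per 10000 in near and 37.1 and 31.9 in far spots at 7 dpi, and at 35.7 and 43.8 in near and 28.3 and 23.5 in far spots of the wild-type slices at 21 dpi. The summed oligodendrocyte markers were at 40.5 and 42.4 in near and 125 and 112 in far spots at 7 dpi, and at 58.5 and 198 in near and 99.1 and 68.0 in far spots at 21 dpi. The part of these cells in the profiles of Bcan and Ptprz1 was not tested.

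Ncan differed little between near and far spots at either time. Its near spots were above far spots at 7 dpi, at 1.22 and 1.09 of the far level, and below them at 21 dpi, at 0.967 and 0.944 in wild type and 0.885 and 0.904 in deleter slices. The counting intervals of its near and far levels overlapped in every slice except slice 1 at 7 dpi. The test of this difference gave -0.26 (SE 0.21, adjusted p = 0.738). At 7 dpi its highest bins were distance 2 in slice 1 (2.09) and distance 3 to 5 in slice 2 (2.12), and at 21 dpi its profile outside the Col1a1-rich spots stayed between 0.860 and 1.24 in all 4 slices. No member was called in the near contrast between the times (0.0% of 14117 genes were called by edgeR, 1415 had an unadjusted p under 0.05 and DESeq2 called 49, none of them a member).

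**Figure D5:**
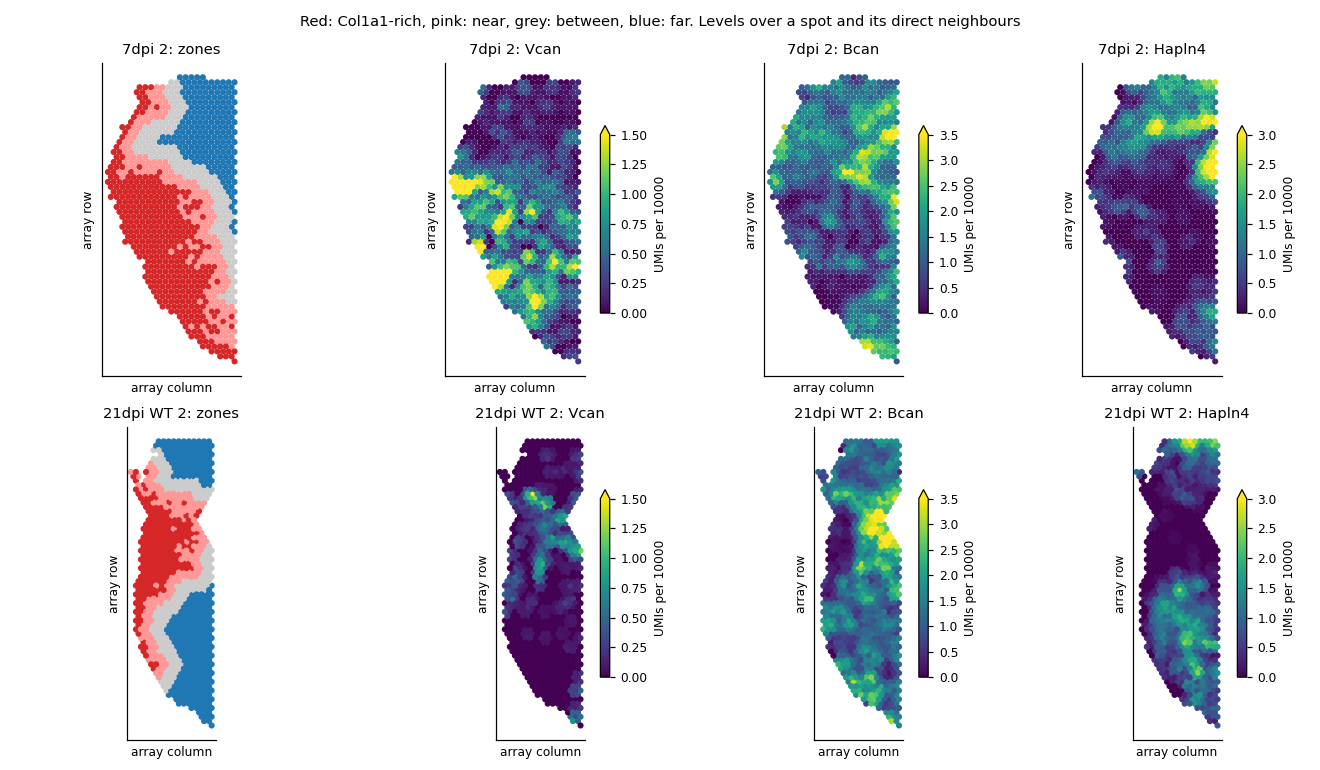
Slice 2 at 7 dpi (top) and wild-type slice 2 at 21 dpi (bottom) in array coordinates to scale; the first column gives the zones and the others Vcan, Bcan and Hapln4 in UMIs per 10000 summed over each spot and its direct neighbours, with colour scales shared between the slices. In the slices shown, Vcan is bright within the Col1a1-rich zone at 7 dpi and Bcan beside that zone at 21 dpi. Hapln4 is bright away from the zone in both. In wild-type slice 1 at 21 dpi, not shown, the near over far ratio of Bcan was 1.03, against 1.52 in the slice shown.

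Between 21 and 7 dpi no member passed the test within the wild-type slices. For the Col1a1-rich against far contrast 0 of 10 members were called, where 0.0283% of 14117 genes were (4 genes; 1429 had an unadjusted p under 0.05, 5 members among them, and DESeq2 called no member). The largest differences were -1.21 (SE 0.44, adjusted p = 0.410) for Vcan, from Col1a1-rich levels of 1.16 and 0.792 at 7 dpi to 0.206 and 0.256 at 21 dpi, and 0.97 (SE 0.23, unadjusted p = 0.00174, adjusted p = 0.208) for Bcan. Over whole slices 0 of 10 were called where 0.0382% of 15727 genes were, with 5 members at an unadjusted p under 0.05. The members with the largest falls were Cspg4 (-1.51, SE 0.22), Vcan (-1.25, SE 0.23) and Ncan (-0.71, SE 0.10), at adjusted p of 0.112, 0.161 and 0.112 by edgeR. DESeq2 called these 3 lower, at adjusted p of 4.47e-06, 0.00167 and 0.00109. Without slice 1 at 7 dpi edgeR called Cspg4 and Vcan (both at an adjusted p of 0.0225). In far spots 0 of 10 were called where 0.0215% of 13961 genes were, 4 members had an unadjusted p under 0.05 and DESeq2 called none. Hapln1 had a log2 fold change of -0.74 there (SE 0.19, adjusted p = 0.962 by edgeR), and 8 of 10 members had values below 0.

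Time could not be separated from other differences between these slices. The wild-type slices at 7 dpi and those at 21 dpi lay on separate capture areas. Xist was at 1.06 and 0.948 UMIs per 10000 at 7 dpi but near 0 in wild type at 21 dpi. In the latter slices the Y-linked gene Ddx3y was at 0.683 and 0.710. Time, area and sex therefore cannot be told apart for the wild-type slices. With 2 slices a group, and slices as the only replicates, p-values carry the spread between mice and between slices cut at different places together. Col1a1-rich spots covered 41.4% of slice 2 at 7 dpi, against 11.5% to 24.5% of the other wild-type injured slices, which enters every whole-slice level of Vcan and Cspg4.

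Deleter and wild-type slices at 21 dpi did not differ in any member by the test. Each genotype had its own capture area, so genotype and area cannot be told apart here. Of the 10 members 0 were called, as were 0.0% of all 15708 genes by edgeR. No member and 529 genes had an unadjusted p under 0.05, and DESeq2 called 12 genes and no member. Log2 fold changes lay between -0.21 (SE 0.23) for Hapln4 and 0.42 (SE 0.24) for Acan, all at an adjusted p of 0.999. Cthrc1 itself was at 0.0638 and 0.0895 UMIs per 10000 in deleter and 0.124 and 0.120 in wild-type slices.

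Among genes that make, bind and cut these proteoglycans, some were called higher and others lower in Col1a1-rich than in far spots. Of 7 tested genes for hyaluronan and its handling, the backbone of nets, 6 were called higher in Col1a1-rich spots and none lower, led by the receptor Cd44 (log2 fold change 3.26) and by Hmmr (2.45). Of 12 genes that build chondroitin sulfate chains 4 were higher and 4 lower. The synthases Chsy1 (1.74) and Chsy3 (-1.69) moved in opposite directions. Of 9 sulfotransferases and epimerases 6 were higher and none lower, led by Dse (3.42) and Chst14 (2.22), which together turn chondroitin into dermatan sulfate. Of 10 tested proteases that can cut proteoglycans 8 were higher, among them Mmp3 (6.39), Mmp14 (5.31) and Mmp2 (4.52), and Adamts20 was lower (-0.98). Of 11 receptors and ligands of chondroitin sulfate 8 were lower, led by the Nogo receptor Rtn4r (-2.16), L1cam (-1.70) and Cntn1 (-1.61), while the growth factors Mdk (2.67) and Ptn (0.90) were higher. Among 9 other matrix partners the fibulin Fbln1 (4.03), the tenascin Tnc (3.29) and Fbln2 (2.98) were higher, and Nptx2 (-2.35), the link protein Hapln2 (-1.90) and Crtac1 (-1.74) lower. Adamts20, Ptn, Hapln2 and Crtac1, like Pvalb and Syt2 above, were named after their values were seen. Median log2 fold changes of the lists ran from -0.78 for the receptors to 3.01 for the proteases, against 0.01 over all genes, and the background shares of 32.4% higher and 30.6% lower apply to these counts too. All 6 fibroblast, 6 pericyte and 6 microglia and macrophage markers were higher in these spots and all 6 neuron and 5 oligodendrocyte markers lower. Col1a1, which defined these spots, is itself among the fibroblast markers, so its call was fixed in advance. Pdgfrb is counted among both the fibroblast and the pericyte markers. The part of these cell types in the lists above was not tested.

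The spatial patterns of the members were compared with those of 12544 other genes over 279 patches of tissue, by Pearson's r of log2 levels centred within each slice. Patches share slices, depth and tissue layers, so r is given as a description. Hapln4 was most like Vsnl1 (r = 0.861), Ywhag (0.840) and Ywhah (0.838), all neuronal genes, and had an r of 0.760 with Pvalb. Cspg5 was most like Slc1a2 (0.844), Aldoc (0.826) and Ttyh1 (0.805), Ptprz1 like Slc1a3 (0.750), Mt3 (0.690) and Asrgl1 (0.683), and Bcan like Aldoc (0.666), Ntsr2 (0.626) and Sfxn5 (0.625). Slc1a2, Slc1a3 and Aldoc are classical astrocyte genes. Cspg4 was most like Tbxas1 (0.711), Lgmn (0.701) and Arl11 (0.700), and Lgmn encodes a lysosomal protease abundant in macrophages. Vcan had an r of 0.655 with Rpsa, the highest of any gene compared, and of 0.639 with Rplp0. Ncan was most like Trim9 (0.608), Nrcam (0.601) and Abi2 (0.594). Hapln1 was most like Fam107a (0.521), Camk2a (0.519) and Slc1a2 (0.516), and Tnr like Scg3 (0.543), Tuba1a (0.523) and Phyhipl (0.519). With patches of 8 rows by 16 columns the r of Tnr with Scg3 was 0.360, and none of these 3 genes was among the 3 most like Tnr. Under that setting the genes named above for Cspg4, Lgmn among them, and for Hapln1 were all replaced as well. Ptprz1 kept only Asrgl1 among its 3, and its r with Slc1a3 was 0.65. Between members, Cspg5 and Ptprz1 had an r of 0.627, Bcan and Ptprz1 of 0.529, Vcan and Cspg4 of 0.487, Ncan and Hapln4 of 0.317 and Vcan and Hapln1 of -0.21. Acan had too few UMIs to be compared.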

How the data were processed

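Spatial transcriptomes of 4 capture areas were analysed. The authors made the deposited matrices with Space Ranger 2.0.0 on mm10, per the submitters' processing notes, and the deposited values are raw UMI counts per spot and gene. Deposited spot positions are array coordinates and tissue flags (other values), and image scale factors were not used. Slices were taken as the 2 connected pieces of tissue of each area. In the shared area the smaller piece was taken as rest and the larger as 2 dpi by piece size alone, since the labels do not say which is which, so every value for rest and 2 dpi rests on that rule. The members and lists were chosen with earlier results of these data known.

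UMIs were summed per slice and zone. edgeR 4.0.16 (R 4.3.3, limma 3.58.1) gave quasi-likelihood tests with TMM scaling, filterByExpr and Benjamini-Hochberg adjustment at a threshold of 0.05, and standard errors are the absolute log2 fold change over the square root of F. Slice was a block in contrasts between zones. The scripts were tested on simulated data. Intervals are exact (Poisson or binomial, 95%) and cover counting error only. The p-values of contrasts between zones carry only the spread of zone differences across these slices. Those of the other tests carry only the spread between these slices, 1 per mouse. Alternatives were DESeq2 1.42.0, no filter, total UMIs in place of TMM, other zone limits, no slice block, spots with at least 1000 UMIs, no outer rings, deleter slices added, each slice left out and patches of 8 rows by 16 columns. The contrast of near spots between times was added after the data were seen. Likeness used patches of 6 rows by 12 columns with at least 15 spots and 30000 UMIs, and genes with at least 500 UMIs. Named genes were the members, the 3 genes most like each, and up to 4 called genes of each list with the largest change. A gene that this rule names is not reported here. Other steps used Python 3.11.15, numpy 2.4.6, pandas 2.3.3, scipy 1.17.1 and matplotlib 3.10.9.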

Additional observations from a re-analysis of the deposited data

Results flagged for a closer look

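Bcan was lower in near than in far spots at 7 dpi but not at 21 dpi, where wild-type slice 1 was nearly level. Its near over far ratio was 0.552 and 0.638 at 7 dpi and 1.03 and 1.52 in wild type at 21 dpi, a difference in mean log2 ratio of 1.08. The edgeR quasi-likelihood test of the difference gave an adjusted p of 0.151.

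Ncan ran the other way, with ratios of 1.22 and 1.09 at 7 dpi and 0.967 and 0.944 in wild type at 21 dpi, a difference in mean log2 ratio of -0.268. The counting intervals of its near and far levels overlapped except in slice 1 at 7 dpi. The test gave an adjusted p of 0.738. Time, capture area and sex cannot be told apart for either gene.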

How the results depend on the processing

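Of the values recomputed under an alternative, 887 kept their direction and their side of the threshold, 65 changed direction, 25 passed the threshold anew, 19 lost it and 12 otherwise moved. No member whose call is reported as higher or lower changed direction. The calls of Vcan, Acan, Cspg4, Hapln4 and Cspg5 in Col1a1-rich spots were kept under every alternative run. Zones were compared within slices, with slice as the block. The labels number no slices, so slices were not paired between times or genotypes. Scarce genes are limited by depth, Acan most of all. The causes of the changes were not tested.

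Counts of members called moved as follows. In Col1a1-rich against far spots 7 were lower with a minimum of 10 Col1a1 UMIs per 10000 and 7 with deleter slices added. In near against far spots 1 was higher and 0 lower with a minimum of 2 Col1a1 UMIs, and 0 higher and 0 lower with no slice block. For the Col1a1-rich contrast between times 1 was lower with no filter on low counts (Vcan, adjusted p = 0.0431), 2 higher with a minimum of 2 Col1a1 UMIs (Bcan and Ptprz1), and 0 to 1 higher with a slice left out. Over whole slices between times 3 were lower with DESeq2, 3 with no filter and 0 to 2 with a slice left out. For the near contrast between times 1 was higher (Bcan) and 1 lower (Cspg4) with no filter, and 0 to 1 higher with a slice left out.

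The log2 fold changes that changed direction belonged to uncalled members. For Col1a1-rich against far spots these were Hapln1 at 0.058 with a minimum of 2 Col1a1 UMIs and Tnr at 0.094 without the outer rings. For near against far spots they were Acan at 0.095 and Cspg5 at 0.0066 with a minimum of 2, Acan at 0.043 without the outer rings, Ncan at -0.070 with a minimum of 10 and Ncan at -0.0058 with deleter slices added. For the Col1a1-rich contrast between times a minimum of 10 gave Acan 0.072, Cspg5 -0.11, Hapln1 -0.25 and Tnr -0.73. There Acan was 0.010 in spots with at least 1000 UMIs, and Tnr was -0.025 with DESeq2, -0.036 with no filter and -0.031 with far spots from distance 10. In far spots between times, distance 10 gave Acan 0.56, Cspg5 -0.031 and Hapln4 -0.15, leaving out the outer rings gave Acan 0.51 and Cspg5 -0.013, and a minimum of 10 gave Cspg5 -0.010 and Hapln4 -0.039. Over whole slices between times Acan was 0.24 without the outer rings. Between genotypes, total UMIs in place of TMM gave Bcan -0.067 and Cspg4 -0.065, and leaving out the outer rings gave Bcan -0.0028 and Cspg4 -0.017. For the near contrast between times a minimum of 2 gave Acan -0.12, Vcan -0.097, Cspg5 -0.14 and Hapln4 -0.55, and distance 10 gave Vcan -0.028.

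With 1 slice left out, the ranges that crossed 0 were as follows. In near against far spots Acan ran from -0.53 to 0.27 and Bcan from -0.46 to 0.00082. For the Col1a1-rich contrast between times Acan ran from -1.22 to 1.29, Hapln1 from -0.13 to 0.30 and Tnr from -0.13 to 0.080. For far spots between times Acan ran from -1.22 to 1.47, Cspg5 from -0.24 to 0.21 and Hapln4 from -0.69 to 1.46. Over whole slices between times Acan ran from -0.99 to 1.45, Cspg5 from -0.14 to 0.19 and Hapln4 from -0.22 to 1.00. Between genotypes Bcan ran from -0.014 to 0.041, Vcan from -0.14 to 0.32, Cspg4 from -0.10 to 0.15, Cspg5 from -0.16 to 0.16, Ptprz1 from -0.11 to 0.28, Hapln4 from -0.59 to 0.075 and Tnr from -0.13 to 0.090. For the near contrast between times Acan ran from -0.67 to 1.95, Vcan from -0.59 to 0.94 and Hapln4 from -0.086 to 0.66.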
